A study of Danio rerio with 9 samples.

Results

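zCry2a encodes a light-inducible cryptochrome, and its added loss was examined here by setting zPer2/zCry1a/zCry2a triple knockout (TKO) larvae against zPer2/zCry1a double knockout (DKO) larvae after light exposure. The comparison used 4 of the 9 arrays of the series, TKO exposed to 3-h light, TKO exposed to 12-h light, and the DKO arrays of the same lightings, and it was paired by lighting. Each array measured RNA of whole larvae at 6 days post fertilization (dpf), with 1 array for each condition. All larvae had been kept in constant darkness from fertilization until the light pulse. Both genotypes lacked zPer2 and zCry1a, which had been disrupted with TALENs, and the TKO larvae additionally lacked zCry2a, which had been disrupted with CRISPR-Cas9 in the DKO background. DKO larvae were harvested 12 h after light onset, so that those of the 3-h array were in darkness again after the pulse. The harvest time of TKO larvae is not given in the sources used here. Wild type (WT) arrays and the dark arrays entered only as reference values. How many larvae were pooled for an array is not given in the sources used here. The p-values rest on 1 residual degree of freedom, the gap between the TKO minus DKO differences at 3-h and at 12-h light. To this limma added a spread shared over all probes, with 3.14 prior degrees of freedom. The p-values thus do not measure the spread between larvae or between arrays of the same condition.

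In the vertebrate clock, CLOCK and BMAL proteins activate transcription of Period and Cryptochrome genes, and the PER and CRY proteins repress that activation. Zebrafish have several copies of most of these genes, and cells throughout the body respond directly to light. Light induces zPer2, zCry1a and zCry2a, which links the lighting to the repressive limb of the clock. The arrays carried 43603 probes, of which 26094 could be given 1 of 13443 gene symbols through RefSeq accessions. Levels are given as the log2 of the background-subtracted signal minus the log2 of the array's 75th percentile, so that 0 is the 75th percentile of the array, and a difference of 1 is a 2-fold change. On the 4 arrays, 88.9% to 89.8% of probes were well above background, the 75th percentile of the signal lay between 574.0 and 632.6, and no spot was saturated. The DKO arrays shared 1 slide and the TKO arrays another, so that genotype and slide cannot be told apart in any difference below. Of 42 marker genes of larval cell types, 39 had a probe, and all 39 were well above background on the 4 arrays with at least 1 probe. Their mean TKO minus DKO differences ran from -0.54 for ahsg2, a liver-secreted plasma protein, to 0.28 for dct, an enzyme of melanin synthesis, with a median of -0.04.

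The targeted genes were examined first. zCry2a (cry3a in RefSeq, 1 probe) had a level of -0.28 in DKO and -0.57 in TKO at 3-h light, and of 1.36 in DKO and 0.84 in TKO at 12-h light. It was thus lower in TKO in both lightings, and higher at 12-h than at 3-h light in both genotypes. The difference was -0.40 (95% interval -0.67 to -0.14), which did not pass the test across all probes (limma, adjusted p = 0.25). In darkness the level was -0.36 in DKO and -1.15 in TKO. A nonsense mutation can leave the transcript in place, and where the probe lies relative to the mutation is not known here, so that this level is no check of the genotype. zPer2, mutated in both genotypes, was -4.09 in DKO and -4.12 in TKO at 3-h light and -0.55 and -0.60 at 12-h light by its brighter probe. zCry1a, also mutated in both, was 0.70 and 0.90 at 3-h light and 2.74 and 2.64 at 12-h light by its brighter probe. By these brighter probes neither gene separated the genotypes, and both were higher at 12-h light. The dimmer zPer2 probe differed by -0.70 (adjusted p = 0.45), with TKO at 3-h light not well above background.

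Large differences were few, and less than 50% of the probes 2-fold apart at either lighting were also 2-fold apart, in the same direction, at the other. A probe just short of 2-fold at 1 lighting is not counted there, so that this share does not show differences to be particular to a lighting. Of 39218 probes that clearly exceeded background on 2 or more of the 4 arrays, 187 passed the test (limma with lighting as a block, adjusted p under 0.05), which is 0.477% of those tested. They comprised 93 probes higher in TKO (0.237%) and 94 lower (0.24%), and 84 of them belonged to 73 named genes, which is 0.565% of the 12924 named genes tested. The residual of this fit is the gap between the difference at 3-h light and that at 12-h light. A probe was thus called only where its difference was large relative to this gap. The same sign in both lightings for all 187 comes with the call. The gap itself had a median size of 0.15 for called probes and 0.14 over all probes. The median size of the called differences was 1.65 on the log2 scale, against 0.11 over all probes, and 72 probes differed by at least 4-fold. By size alone, 466 probes (1.19%) were at least 2-fold apart at 3-h light and 534 (1.36%) at 12-h light, and 229 (0.584%) were so in both and in the same direction. These were 49.1% of the probes 2-fold apart at 3-h light and 42.9% of those at 12-h light, and a further 8 probes were 2-fold apart in opposite directions. Of the 229, 113 (0.288%) were higher and 116 (0.296%) lower in TKO, and 167 were among the 187 called. Across the 39218 probes, the differences at 3-h light and at 12-h light correlated with r = 0.60 (Pearson); these pairs share no array, but they share the slides.

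The number of calls depended on the spread that 4 arrays allow, with 1 residual degree of freedom. A fit that added the WT light arrays called 259 probes, and when each array was left out of that fit in turn, 41 probes were called without the DKO 3-h array, 53 without the DKO 12-h array, 129 without the TKO 3-h array and 132 without the TKO 12-h array. A called probe could pass the filter through 1 genotype alone: 18 called probes were not well above background on either DKO array and 28 on neither TKO array, whereas 129 were well above background on all 4. For a probe that passed through 1 genotype, the adjusted p rests in part on values below background and adds nothing to the stated bound.

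**Figure D1:**
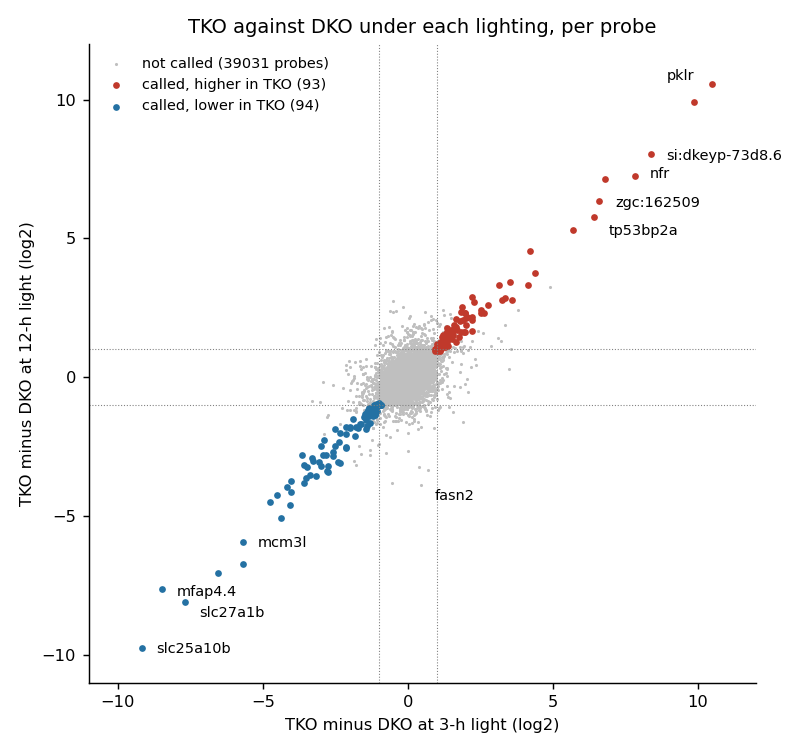
Difference between TKO and DKO at 3-h light (x axis, log2) and at 12-h light (y axis, log2) for each of 39218 probes; red and blue points are the 93 and 94 probes called by limma, grey points are not called, and dotted lines mark 2-fold. Called probes lie along the diagonal, as the call requires, from slc25a10b at the lower left to pklr at the upper right, while fasn2 lies below the grey cloud at 12-h light only.

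Among named genes, each taken at its most changed called probe, the largest decreases in TKO were in slc25a10b, mfap4.4 and slc27a1b. slc25a10b, which encodes a mitochondrial dicarboxylate carrier, was at 0.52 and 0.79 in the DKO arrays (3-h and 12-h light) and at -8.66 and -8.94 in the TKO arrays. The TKO values were not above background, so that this 1 probe was at least 181-fold lower (adjusted p = 0.0016). The other slc25a10b probe pointed the other way, with a difference of 0.96 (adjusted p = 0.091), so that the gene as a whole did not follow the called probe. slc27a1b, a fatty acid transport protein, was at -0.92 and -0.68 in DKO and at -8.60 and -8.79 in TKO, not above background in TKO and at least 65.9-fold lower (adjusted p = 0.0016). Its remaining probes were lower by less, with differences of -3.68 (adjusted p = 0.0036) and -0.77 (adjusted p = 0.069). mfap4.4, of the microfibril-associated protein 4 family, was at -0.42 and 0.01 in DKO and at -8.89 and -7.60 in TKO, at least 99.5-fold lower (adjusted p = 0.0041), and its other probe was at least 32.2-fold lower. By these most changed probes of the 3 genes, the WT arrays, dark array included, lay with the DKO arrays rather than the TKO arrays. Under light, WT was at 0.88 and 1.03 for slc25a10b and at -0.79 and -0.67 for slc27a1b.

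Further genes were lower in TKO, some with both genotypes measurable and some not above background in TKO. adh5l, an alcohol dehydrogenase-like gene, had all 3 of its probes called, with differences of -2.72, -2.33 and -2.70. b3gntl1, a glycosyltransferase-like gene, was at -1.85 and -1.60 in DKO and at -4.45 and -4.42 in TKO, a 6.53-fold difference (adjusted p = 0.0073). exoc1, a subunit of the exocyst that tethers secretory vesicles, fell from 1.41 and 1.18 to -0.57 and -0.59, a 3.67-fold difference (adjusted p = 0.017). For these genes the gap between the genotypes was larger than the step between the lightings within either. This comes with their choice as large called differences on the same 4 arrays, and adds nothing to the calls. zfand1, zgc:194246 and si:ch211-199m3.1 were lower by 3.36, 3.09 and 2.17 on the log2 scale, and the homeobox gene mixl1 was at least 1.65-fold lower, not above background in TKO. mcm3l, a relative of the replicative helicase subunit MCM3, was at -3.18 and -3.14 in DKO and not above background in TKO, at least 12.8-fold lower (adjusted p = 0.0016), while its other probe was 2.01-fold lower (adjusted p = 0.047). In contrast to the genes above, WT was also not above background for that first mcm3l probe, at -8.96 to -8.51. Probes of zgc:174696 and grcc10 were likewise lower and near background in TKO and in WT, and their other probes ranged from 0.00 to 0.54.

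Among the genes higher in TKO, the largest difference was in pklr, which encodes the pyruvate kinase of liver and red blood cells, the enzyme of the last step of glycolysis. One pklr probe was at -6.21 and -6.89 in DKO and at 4.29 and 3.68 in TKO, a difference of 10.53 ± 0.08 (SE; adjusted p = 0.00028). Only 1 of the 2 DKO arrays was well above background for it, so that the size of the difference rests in part on a value below background. The remaining 5 pklr probes were not called, with differences between -0.38 and 0.57, so that the gene's level as a whole did not follow that probe. The WT arrays were at 5.28 to 5.64 on the same probe. si:dkeyp-73d8.6 and nfr were not above background in DKO or WT and were at least 157-fold (adjusted p = 0.0016) and 70.5-fold (adjusted p = 0.0030) higher in TKO. tp53bp2a, which encodes a p53-binding protein, was not above background in DKO by 1 probe and at least 30.5-fold higher in TKO (adjusted p = 0.0045). On that probe WT was at -3.15 to -2.48, so that DKO stood below both WT and TKO. Its other 3 probes differed by -0.49 to 0.16. zgc:162509 was at least 20.4-fold higher in TKO by 1 probe, on which WT was at -0.79 to -0.19 and DKO again stood below both. It was higher by 3.18 on the log2 scale by another, and its dimmest probe differed by 0.17 (adjusted p = 0.84).

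Cytochrome P450, kinase-activator and lectin genes followed at smaller size. The cytochrome P450 genes cyp2aa6 and cyp2aa8 were higher in TKO by 4.41-fold (adjusted p = 0.018) and 4.18-fold (adjusted p = 0.010). cyp2aa6 was at -0.98 and -0.87 in DKO, at 1.01 and 1.43 in TKO and at 1.94 in WT at 3-h light, so that TKO lay between. prkra, which encodes an activator of the double-stranded RNA-dependent kinase, was at -5.08 and -4.89 in DKO and at -2.55 and -2.47 in TKO, a 5.56-fold difference (adjusted p = 0.0062), with WT at -3.11 to -2.42. itln3, an intelectin that binds microbial sugars, was 4.57-fold higher by 1 probe (adjusted p = 0.047) and 3.63-fold by the other (adjusted p = 0.085). zgc:174862, zgc:154055, zgc:64012 and neurl1ab, an E3 ubiquitin ligase gene, were higher by 2.48, 1.97, 1.88 and 1.81 on the log2 scale. For cyp2aa8, zgc:174862 and zgc:154055 the DKO light arrays stood below both WT and TKO. WT under light was at -1.55 and -1.37, at -0.31 and -0.57, and at -2.05 and -2.03 for these genes. For zgc:64012 and neurl1ab, WT under light was instead below DKO on the most changed probe, at -4.95 and -4.55 and at -4.40 and -4.51. On the other called zgc:64012 probe, WT was at -4.85 and -4.16 and DKO at -4.28 and -4.54, so that WT was above DKO at 12-h light. zgc:64012 was higher by 0.96 to 1.88 in 4 of its 5 probes, of which 2 were called, whereas the other probes of neurl1ab differed by -0.10 and 0.00. nitr12, an immune-type receptor gene, was at least 1.74-fold higher by a probe that was not above background in DKO, and its brighter probe differed by -0.05.

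**Figure D2:**
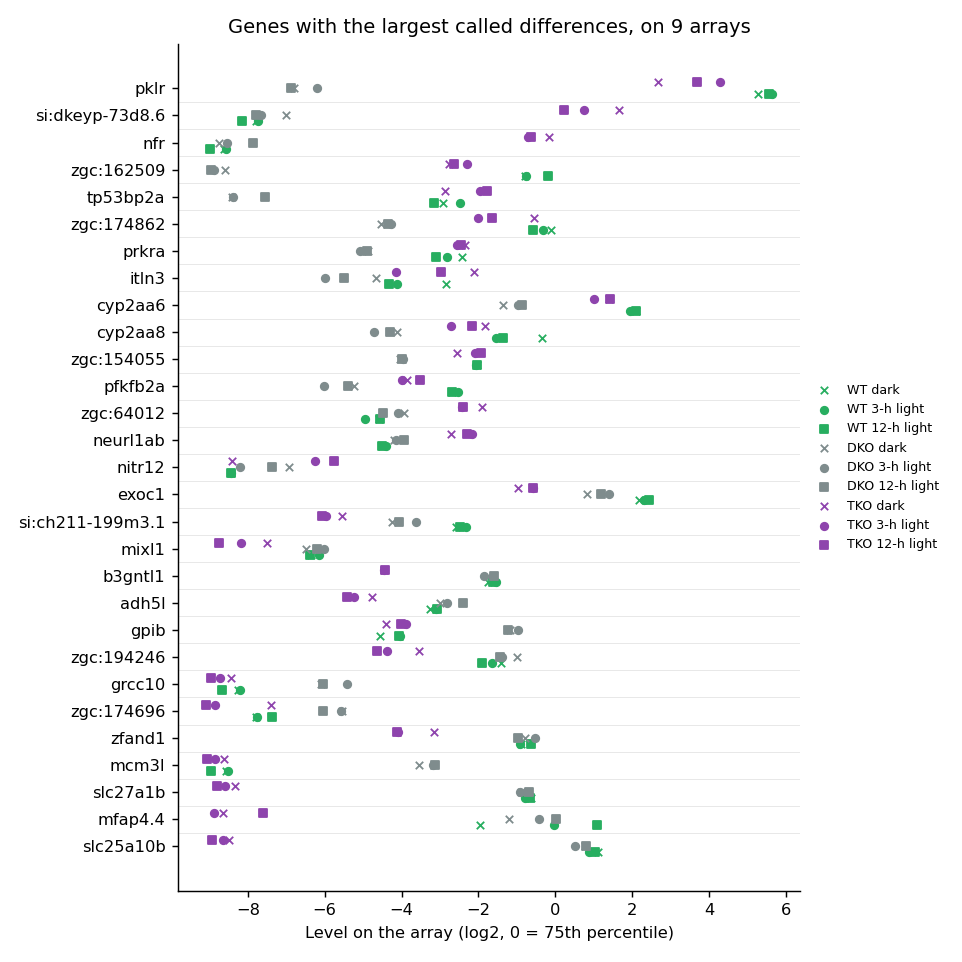
Level (x axis, log2, 0 is the array's 75th percentile) of the 15 genes with the largest called increase and 14 of the 15 with the largest called decrease in TKO, 1 probe each, on all 9 arrays; green is WT, grey DKO and purple TKO, and crosses, circles and squares are dark, 3-h light and 12-h light. Within a genotype the 3 lightings lie close together for most genes. For pklr, zgc:162509, tp53bp2a, cyp2aa6 and prkra, among others, the DKO arrays stand below both WT and TKO.

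Probes of the same gene often disagreed. Of the 73 named genes called, 48 had more than 1 probe tested, and in 6 of them every probe was called. In 24 of the 48, 1 probe was called and all others differed by less than 0.5. A further 103 called probes carried no gene symbol, 48 higher and 55 lower, with differences from -6.80 to 9.90. Such probes are not named here. Members of families with near-identical copies, such as the cyp2aa and mfap4 genes, cannot be separated with certainty by their probes.

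The dark arrays, which the comparison did not use, held most of these differences as well. TKO minus DKO in darkness had the same sign as under light for 176 of the 187 called probes (94.1%), beside 69.2% of all probes tested. A difference of at least 2-fold in the same direction was present in darkness for 146 of the 187 (78.1%), beside 5.49% of all probes. The called probes were chosen for large differences under light, with a median size of 1.65 against 0.11 over all probes. A higher share than over all probes thus comes in part with that choice. By their called probes, slc25a10b was at 0.77 in DKO and -8.48 in TKO in darkness, and pklr at -6.80 and 2.66. The dark TKO and dark DKO arrays were further apart than the light pairs. In darkness 2527 probes (6.44%) were at least 2-fold apart, against 1.19% at 3-h light and 1.36% at 12-h light. This count cannot tell which dark array stood apart. The dark arrays also shared the slides of their genotypes. plek, which encodes pleckstrin, and nitr12 were among the called genes that went the other way, at -0.94 and -1.49 in darkness against 1.57 and 1.78 under light. For both genes, however, both dark arrays lay below their lowest signal well above background. The sign and size of these dark differences thus rest on values below background.

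The question of whether loss of zCry2a altered the clock genes under light was then put to 65 probes of 36 genes: the Period and Cryptochrome genes, the CLOCK and BMAL activators, the Bhlhe40 and Bhlhe41 repressors, the Rev-erb and ROR receptors, and the PAR bZIP and nfil3 factors. None of the 65 was called by limma (adjusted p under 0.05), beside 0.477% of all probes; 20 (30.8%) had an unadjusted p under 0.05, 14 lower and 6 higher in TKO, beside 13.9% of all probes. For 63 of the 65, the 95% interval of the difference lay within 2-fold in either direction, as it did for 96.8% of all probes. The median size of the clock differences was 0.17, against 0.11 over all probes.

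Among the Period, Cryptochrome, bhlhe40 and bhlhe41 genes, the largest positive difference was in per1b, and the cryptochrome probes differed by -0.40 (zCry2a) to 0.25 (cry2). per1b was at 2.29 in DKO and 2.91 in TKO at 3-h light and at 1.39 and 1.62 at 12-h light by its brighter probe, a difference of 0.43 (interval 0.09 to 0.76, adjusted p = 0.29), and the other probe gave 0.42 (interval 0.12 to 0.71, adjusted p = 0.26). Both per1b probes were higher in TKO in both lightings, and neither passed the test. per1a and per3 differed by -0.14 to 0.12 over 4 probes. zCry2b (cry3b), the closest relative of zCry2a, was at -4.85 in DKO and -4.65 in TKO at 3-h light and at -1.94 and -2.01 at 12-h light by its brighter probe, a difference of 0.06 (interval -0.22 to 0.34); the dimmer probe differed by -0.36 (interval -0.59 to -0.14). zCry2b was thus higher at 12-h than at 3-h light in both genotypes. cry1b, cry2 and cry4 differed by -0.16 to 0.25, and bhlhe40 and bhlhe41 by 0.06 to 0.23, with no call.

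**Figure D3:**
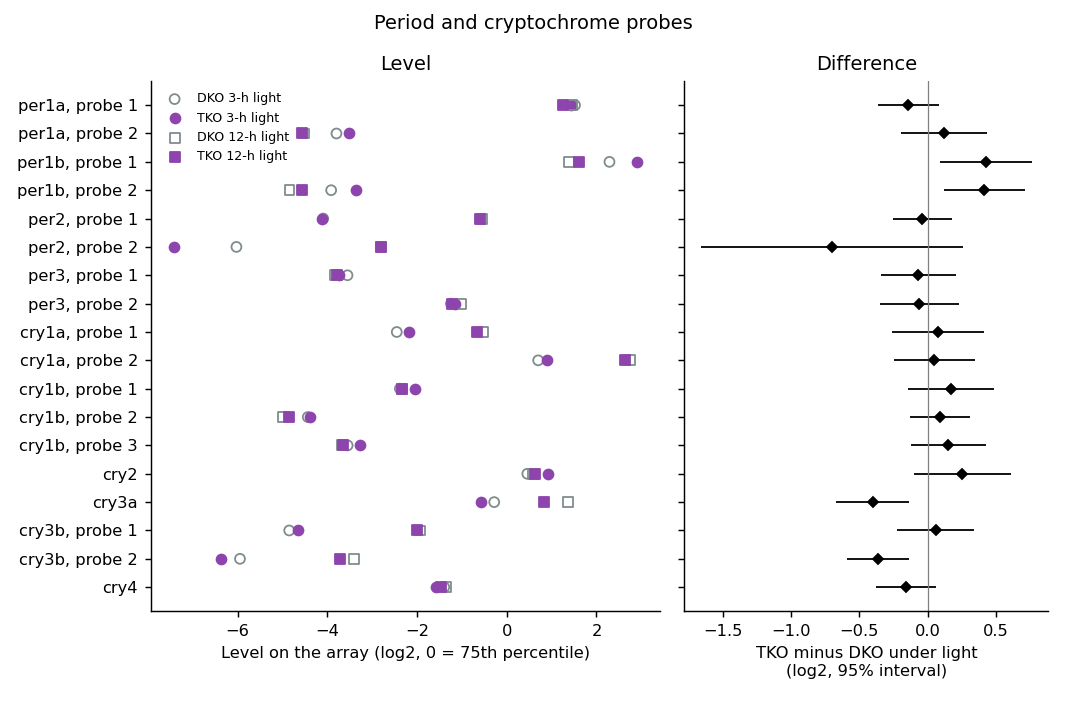
Left, level (x axis, log2, 0 is the array's 75th percentile) of each Period and Cryptochrome probe in DKO (open grey) and TKO (filled purple) at 3-h light (circles) and 12-h light (squares); right, the limma difference TKO minus DKO with its 95% interval. The genotypes lie close together at each lighting, while per2, cry1a, cry3a and cry3b are higher at 12-h than at 3-h light in both.

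The activators had small negative differences. All 7 probes of the 6 measured genes were below 0, with a gene median of -0.24 beside -0.02 over all named genes. clocka was at -3.77 in DKO and -4.04 in TKO at 3-h light and at -3.64 and -4.10 at 12-h light, a difference of -0.36 (interval -0.61 to -0.11, adjusted p = 0.26). bmal1b differed by -0.23 (interval -0.45 to -0.01), npas2 by -0.26 and bmal2 by -0.26, and bmal1a by -0.12. None of these passed the test. Among the receptors, rorcb differed by -0.40 (adjusted p = 0.19), nr1d4a by -0.37 and nr1d1 by 0.06 to 0.13. nfil3-6, a repressor of the bZIP family, had the largest difference of any clock probe, from -5.59 and -4.37 in DKO to -4.15 and -3.29 in TKO, or 1.26 (interval 0.95 to 1.58, adjusted p = 0.060), but its other 4 probes lay between -0.62 and -0.35. tefa, a PAR bZIP activator that responds to light in zebrafish, differed by 0.19 to 0.31 over 4 probes.

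Of the melatonin and pineal genes, several of which the clock drives, asmt2 passed the test, 1 of 9 genes measured, beside 0.565% of all named genes. asmt2, an acetylserotonin O-methyltransferase gene of the last step of melatonin synthesis, was at -2.53 and -2.35 in DKO and at -0.87 and -0.55 in TKO, a 3.32-fold increase (adjusted p = 0.017). The TKO arrays were nearer to WT, which was at -0.37 and 0.15 under light, and the DKO arrays stood below both. aanat2, the rate-limiting enzyme of melatonin synthesis in the pineal gland, was at 0.46 and 0.45 in DKO and at -0.22 and -0.33 in TKO, a difference of -0.73 (interval -0.95 to -0.51, adjusted p = 0.080), with WT at 1.34 and 1.59. aanat1, its retinal relative, differed by -0.32 (adjusted p = 0.28). The other 6 measured genes of this list, which include asmt, crx, otx5, tph1a and exorh, had no called probe. Among 10 measured genes of the list of photolyases and light-induced DNA repair, only lonrf1 was called, beside 0.565% of all named genes. This member is named for a LON peptidase domain and a ring finger, not for DNA repair. 1 of its probes was at -1.59 and 0.65 in DKO and at -2.99 and -0.60 in TKO (adjusted p = 0.032), and its other probes differed by 0.07 and 0.21. None of 84 probes of 40 phototransduction genes was called by limma, beside 0.477% of all probes. Of the 84, 6 had an unadjusted p under 0.05 (7.14%), below the 13.9% of all probes.

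In metabolism, 3 of 36 measured glycolysis genes had a called probe, beside 0.565% of all named genes, and the median of the list was -0.01. With each gene at its brightest probe, 1 of the 36 was called. gpib, a glucose-6-phosphate isomerase gene, was at -0.98 and -1.22 in DKO and at -3.89 and -4.02 in TKO, a 7.24-fold decrease (adjusted p = 0.0045), and WT was at -4.57 to -4.05, so that here DKO stood above both. pfkfb2a, which encodes the enzyme that sets fructose 2,6-bisphosphate, was at -6.01 and -5.40 in DKO and at -3.99 and -3.51 in TKO by 1 probe, a 3.87-fold increase (adjusted p = 0.012), with WT at -2.69 to -2.54. Its other probes were higher by 0.60 (adjusted p = 0.23) and 0.85 (adjusted p = 0.19). The third was the single pklr probe above, which the other probes of that gene did not follow. hkdc1, a hexokinase gene, differed by -0.45 to 0.05 over 3 probes, and pgm1, a phosphoglucomutase gene, by -0.17 and -0.11, with no call. In the lists of respiratory chain and of liver genes 1 gene each was called, beside 0.565% of all named genes. Of 73 nuclear genes of the respiratory chain, ndufs8b, a subunit of complex I, was lower by 1.35 on the log2 scale by 1 of 2 probes (adjusted p = 0.024), and the median of the list was 0.07. Of 39 liver and plasma protein genes, plg, which encodes plasminogen, was called by a probe at -1.36 (adjusted p = 0.023), while its brighter probe differed by 0.20.

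Some lists with no call had small differences of 1 sign in most members. Exocrine pancreas enzymes had negative differences, with 3 of 27 genes above 0 and a median of -0.21, beside 5890 of 12924 named genes above 0 and a median of -0.02. In whole larvae, fewer pancreas cells and less enzyme RNA per cell cannot be told apart. The lens crystallin crybb2 differed by -0.81 and -0.79 over 2 probes (adjusted p = 0.077 and 0.070), beside a median of -0.05 over 57 crystallin genes. Innate immune and inflammatory genes had a median of 0.18 and 30 of 36 genes above 0, with irg1l at 0.64 and 0.67 over its probes (adjusted p = 0.27 and 0.24). The lowest gene of this list, acod1, went the other way, at -0.53 (limma adjusted p = 0.32). In the remaining lists outside the clock without a call, the gene medians lay between -0.10 and 0.12.

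Several groups of genes differed at 1 lighting and not at the other. With 1 array for each condition, the difference between the lightings could not be tested, and the values are given as a description. DNA replication genes had a median difference of 0.00 at 3-h light but 0.27 at 12-h light, and 42 of 44 genes were higher at 12-h light than at 3-h light in their TKO minus DKO difference, beside 6878 of 12924 named genes. dut, which removes dUTP before replication, differed by 0.37 and 0.78, gins2, a subunit of the replicative helicase, by 0.18 and 0.58, and rpa3, which binds single-stranded DNA, by -0.01 and 0.64. Mitosis genes went from a median of -0.07 to 0.29, higher in 35 of 36, and cdk1, the kinase that drives entry into mitosis, was at -0.82 in DKO and -0.80 in TKO at 3-h light and at -1.39 and -0.71 at 12-h light. The DKO array at 12-h light was thus the lowest of the 4 for cdk1. WT was at -0.88 and -0.83 for cdk1, close to the TKO arrays. The medians of the lists did not follow cdk1 in this, as TKO lay furthest from WT at 12-h light. For mitosis genes the median level there was -2.73 in WT, -2.72 in DKO and -2.43 in TKO. For DNA replication genes it was -2.03 in WT, -1.83 in DKO and -1.54 in TKO.

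Some cholesterol synthesis genes showed a similar pattern of larger size, but their list as a whole did not. The median of the cholesterol and fatty acid synthesis list went from 0.05 at 3-h light to 0.19 at 12-h light. The difference was higher at 12-h light in 26 of 37 genes, beside 6878 of 12924 named genes. hmgcra, the rate-limiting reductase of the pathway, was at -1.23 in DKO and -0.88 in TKO at 3-h light and at -2.62 and -1.26 at 12-h light by its brightest probe. lss, which makes lanosterol, and cyp51, which demethylates it, differed by 0.29 and 0.32 at 3-h light and by 1.26 and 1.37 at 12-h light. None of these passed the test over both lightings (adjusted p = 0.27 to 0.46 for the cyp51 probes). For hmgcra, WT was at -1.82 at 3-h and -3.07 at 12-h light, and of the 3 genotypes TKO had the smallest step between the lightings. fasn2, a fatty acid synthase gene, went the other way: it was at -3.07 in DKO and -2.63 in TKO at 3-h light and at -3.69 and -7.58 at 12-h light, where TKO was not above background, and its other probe did the same. The heat-shock gene hsp70l was at 0.39 in DKO and 0.54 in TKO at 3-h light and at 1.50 and 0.25 at 12-h light, so that the DKO array at 12-h light stood above the other 3. hsp70.3, a second inducible chaperone gene, differed by 0.02 and -1.21. 

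The genes with the largest step between the lightings, among probes well above background on all 4 arrays, included gch2, which makes the pteridine precursor of yellow pigment. It was at -0.53 in DKO and -1.01 in TKO at 3-h light and at -1.81 and -0.41 at 12-h light by its brightest probe, and its 5 probes gave steps of 1.88 to 2.22. aep1, an aerolysin-like gene, differed by -1.83 and 0.54, and the prostaglandin receptor gene ptger4c by -1.85 and -0.01. zgc:173726 differed by -1.86 and 0.06, and a crp2 probe, of a C-reactive protein gene, by -0.61 and 1.25. In the other direction, ctslb, a cathepsin gene, differed by 0.35 and -1.60, dusp19b, a phosphatase gene, by 3.23 and 1.29, fbxo30b by 0.21 and -1.50, ftr86 by 1.36 and -0.31, and the claudin gene cldn15b by 0.84 and -0.79. All 5 probes of gch2 showed the step, whereas the values of the other 9 genes are of single probes. The further probes of dusp19b were higher in TKO at both lightings, by 1.91 and 1.08 and by 2.08 and 0.97. 1 further probe of aep1 gave -1.63 and 0.32, but its brightest probe gave -0.02 and -0.16. The brightest probe of crp2 gave -0.61 and 0.94, and its dimmest gave -0.55 and -0.07. The remaining probes of ctslb, fbxo30b, ftr86, cldn15b and zgc:173726 did not show the step: those of ctslb, for example, gave 0.24 and 0.09, 0.13 and -0.27, and 0.28 and -0.02, and that of fbxo30b gave -0.35 and -0.19.

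**Figure D4:**
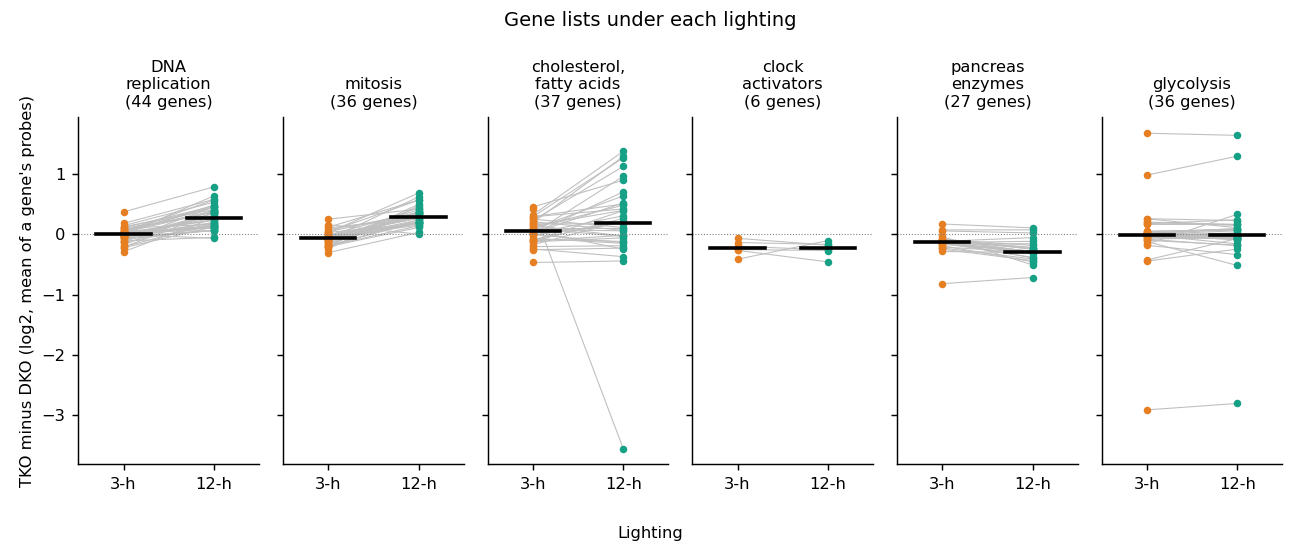
TKO minus DKO difference (y axis, log2, mean over a gene's probes) at 3-h light (orange) and 12-h light (green) for the genes of 6 lists; each line is 1 gene and black bars are medians. The medians of DNA replication and mitosis genes go from 0.00 and -0.07 at 3-h light to 0.27 and 0.29 at 12-h light, fasn2, not above background in TKO there, lies at -3.55 at 12-h light, and 3 glycolysis genes, each by 1 called probe, stand apart from their list at both lightings.

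Since zCry2a was disrupted on the DKO background, the positions of the called genes relative to it were also compared, using the order of genes in the RefSeq assembly GRCz12tu and not the older build of the array. zCry2a lies on chromosome 8, where 1 of 620 genes tested was called (lonrf1). Within 10 Mb of zCry2a, 1 of 295 genes was called, or 0.339%, beside 0.565% of all named genes. Chromosomes 20 and 17 held the most, with 12 of 621 genes (1.93%) and 8 of 444 genes (1.80%), and 6 chromosomes held none. When called genes separated by at most 20 measured genes were joined, 9 stretches had 3 or more called genes. These stretches held 35 of the 73 called genes and 247 of the 12924 genes measured. Each stretch begins and ends at a called gene, so that a high share of called genes within it comes with the rule. The rule was chosen after the values were seen, and whether called genes cluster was not tested.

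On chromosome 1, slc25a10b, b3gntl1, slc27a1b, mfap4.4 and eri2 were lower and zgc:64012 was higher within a stretch of 30 measured genes. This stretch thus held the 3 largest decreases among named genes, each taken at its most changed called probe. On chromosome 23, cyp2aa6, cyp2aa8, pfkfb2a and zgc:174862 were all higher within 11 measured genes. On chromosome 13, tp53bp2a, gsta.2, plek and perp were higher and gtf2a1l lower within 32 genes. On chromosome 17, asmt2, zgc:154055, nipal3 and heatr5a were all higher within 34 genes, and on chromosome 20, hook1, exoc1 and esr1 were all lower within 27. The remaining 4 stretches, on chromosomes 4, 9 and 20, held 3 or 4 called genes each in both directions.

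**Figure D5:**
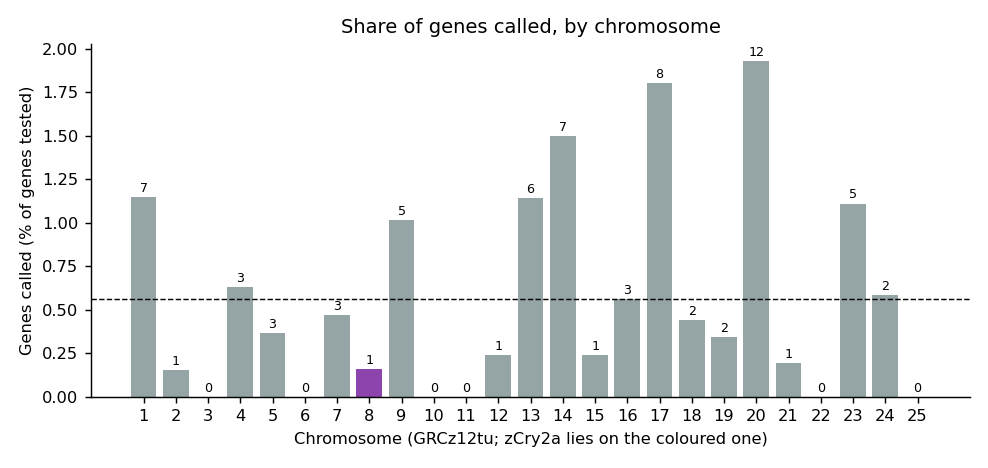
Share of tested genes with at least 1 called probe (y axis, percent) on each of the 25 chromosomes (x axis); the number above a bar is the count of called genes, the dashed line is the share over all genes, 0.565%, and the coloured bar is chromosome 8, which carries zCry2a. Chromosome 20 has the highest share, with 12 called genes, and chromosome 8 has 1.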

How the data were processed

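Total RNA of whole larvae was labelled with Cy3 and hybridized to 1-colour Agilent zebrafish arrays, 1 array per condition. The deposited scanner files of Agilent Feature Extraction 11.5.1.1 hold per-spot intensity values, background-subtracted by that software; the deposited series table holds the same intensity values multiplied by 1 constant per array, and was used as an alternative. The log2 of each spot's processed intensity was taken, and the log2 of the array's 75th percentile over non-control spots was subtracted. Spots flagged irregular were then left out, and the values of the remaining spots of a probe were averaged. Probes flagged as well above background on 2 or more of the 4 arrays were tested with limma 3.58.1 in R 4.3.3 (genotype plus lighting, eBayes, Benjamini-Hochberg). The deposited flag columns (other values) gave background and irregular spots. Symbols came from RefSeq accessions (GRCz12tu table). A gene's difference is the mean over its tested probes. A difference called "at least" sets the bright genotype's mean against the dim genotype's mean, each dim array raised to its lowest signal well above background. Genes were named by a rule: the targeted and clock genes, the 15 largest called differences in each direction, the 5 largest steps between lightings in each direction, the 4 genes furthest from 0 in each of 27 lists, and 4 genes named by the study; names in stretches of neighbours follow the calls. Results of some genes are not reported here. The members and lists were chosen with earlier results of these data known. The number of arrays limits the precision: 50 replicated probes gave a spot SD of 0.14 (log2) within an array.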

Additional observations from a re-analysis of the deposited data

Results flagged for a closer look

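With 1 array per condition, no group could be examined for outlying samples. Among the named genes, 3 moved in opposite directions at the lightings by more than 0.40 on the log2 scale each way (mean over a gene's probes), which is 2 spot SDs of a ratio within arrays; the difference between the lightings was not tested. fasn2 was at 0.41 at 3-h light and -3.55 at 12-h light, a step of -3.97; TKO was not above background for it at 12-h light, so that the sizes of the difference there and of the step rest on values below background. gch2 was at -0.62 and 1.50, a step of 2.11. crp2 was at -0.59 and 0.71, a step of 1.29, with 1 of its 3 probes below 0 at both lightings.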

How the results depend on the processing

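The 187 called probes kept their sign under every alternative in which they were tested. The alternatives reuse arrays of the comparison, and the called differences were at least 0.94 in size. A kept sign therefore comes with the choice of these probes and adds nothing to the calls. The number of calls did not hold. It was 467 with median scaling, 920 with normexp and quantile normalization, 1172 with limma's trend and robust options, 527 with all 9 arrays and 577 with 8 arrays (without the dark TKO array, chosen after seeing the data). It was 8 with no filter on dim probes and 66 when 1 array above background sufficed. Without 1 light array it was 41 (DKO 3-h), 53 (DKO 12-h), 129 (TKO 3-h) and 132 (TKO 12-h); there the lone array of a genotype was assumed to vary like the others. With the lighting left unpaired (no term for lighting) it was 139, of which 130 were among the 187, and with WT light arrays 259, of which 159 were. With median scaling all 187 were called, with normexp 152, and with trend and robust options 172. The count of probes at least 2-fold apart in both lightings (229) was 654 at 1.5-fold, 102 at 3-fold, 60 with normexp, 364 with no filter and 143 with probes above background on all 4 arrays; no array can be left out of it. Of the 30 genes named for size, 5 stayed past the threshold in every setting that tested them. None changed sign, which likewise comes with their choice. Of the 65 clock probes, 4 were called in some setting (nfil3-6 by 2 probes, and cry3a and nr1d2a), and 33 changed sign in at least 1 setting. The nfil3-6 probe with the positive difference was called in 7 settings, cry3a in 2, and the remaining probes in 1 each. The same counts over all probes are not given here, so these counts show nothing particular to the clock probes. With each gene at its brightest probe, 43 named genes were called instead of 73, and 1 glycolysis gene instead of 3. The cause of these differences was not tested. No paired analysis was possible because the samples carry no shared replicate numbers beyond 1; the pairing by lighting, which the test used, was the only one.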

Other observations

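Outside the groups above, hmox1a and hmox1b, the heme oxygenases that release iron from heme, had negative differences, larger at 3-h than at 12-h light. hmox1b was at 1.29 in DKO and 0.31 in TKO at 3-h light and at 1.90 and 1.45 at 12-h light (limma adjusted p = 0.21), and hmox1a at 0.42 and -0.40 and at 0.97 and 0.78 (adjusted p = 0.34). The WT arrays, at 1.16 and 1.54 for hmox1b under light, lay between DKO and TKO at both lightings. Of 15 iron-handling genes measured, none was called, beside 0.565% of all named genes; 7 of 37 probes (18.9%) had an unadjusted p under 0.05, beside 13.9% of all probes. timp2b, a metalloprotease inhibitor gene, differed by 0.03 at 3-h light and 1.25 at 12-h light. sdhda, a subunit of complex II, was lower by 0.57 and 0.51 on the log2 scale over 2 probes (adjusted p = 0.12 and 0.14), with both probes lower at both lightings.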
